A study of Homo sapiens with 3 samples.

Results

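Oxidative phosphorylation is carried out in the inner mitochondrial membrane by complexes I to V, and the nuclear genes that encode their subunits are described here in LNCaP cells, an established line from a metastasis of prostate cancer that depends on androgen signalling. Members were the genes with a symbol of the families NDUFA, NDUFB, NDUFC, NDUFS, NDUFV, SDH, UQCR, CYC1, COX4 to COX8 or ATP5, taken from probe sets that the platform annotation assigns to 1 gene. The rule found 83 genes (90 probe sets) of 18417 on the array, all under their current symbols. Of these, 80 are protein-coding genes that were placed in complexes I (34 genes), II (3), III (8), IV (17) and V (18), and 3 are non-coding genes that share the naming. The SDHA, SDHC and SDHD genes alone stand for complex II, so its values rest on few genes.

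The chimera siRNA group held 1 array titled siSE1 and 1 titled siSE2, from cells transfected with siRNAs against the SLC45A3-ELK4 fusion transcript using RNAiMAX. The control group was 1 array from cells given a negative control siRNA, which the series text calls siGl2. Transfection lasted 72 hours on all 3 arrays. The transfection field of the siSE2 array names siSE1, against its title, so the title was followed; either reading keeps both arrays in the chimera siRNA group. Each siRNA has 1 array, and nothing in the labels states that cultures were replicated. The p-values rest on the difference between siSE1 and siSE2 and on a spread estimate shared across genes. The lone control array adds no measured spread. Both siRNAs are compared with the same control array, so any error in that array enters both differences.

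The array values are on a log2 scale, on which a difference of 1 is a doubling. Array medians over all probe sets were 5.84 (siSE1), 5.84 (siSE2) and 5.80 (control). The parent gene SLC45A3 had 9.14 with siSE1 and 9.27 with siSE2, against 9.66 in control. ELK4, an ETS transcription factor gene, had 8.45 and 8.20 on the siRNA arrays, against 8.50 in control. Neither passed the test across genes (limma, adjusted p = 0.154 and 0.582), and these probe sets do not resolve the fusion junction. Of 10 luminal prostate genes listed, 6 were measured, at 6.39 (ACP3) to 10.73 (KRT8) over the arrays. The 8 fibroblast genes measured lay between 2.41 (LUM) and 6.99 (COL1A1), and the 6 blood cell genes between 3.17 (PTPRC) and 7.67 (CD68).

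Electrons from NADH enter the respiratory chain at complex I and those from succinate at complex II, pass through complex III and cytochrome c to complex IV, and reduce oxygen there. Complexes I, III and IV pump protons, and complex V, the ATP synthase, uses the return flow to make ATP. Most subunits are encoded in the nucleus and made in the cytosol, and many of their promoters are known to carry sites for ETS factors such as GABPA and for NRF1. Prostate epithelium is known for secreting citrate and limiting its oxidation, a restraint that is lost in prostate cancer cells.

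The promoters are shown here because the targeted transcript contains ELK4 sequence and ETS sites are a known feature of this gene group. Each line gives 120 bases upstream of the transcription start, 5′ to 3′ on the strand of the gene, from the RefSeq table for GRCh38.p14. Capitals mark the ETS core CCGGAAG, which reads CTTCCGG on the reverse strand, and the NRF1 core, the run of capitals in the ATP5F1C line, which is its own reverse complement. COX7B had the lowest change among the members and holds neither core in its window, while NDUFA1, NDUFS3 and SDHD hold the ETS core and were lower on both siRNA arrays. SDHD and ATP5F1C hold the NRF1 core, and ATP5PF holds the ETS core and was higher on both siRNA arrays. The promoters printed were picked by hand, so they do not show whether a core goes with a change. In longer windows, 29.2% of the tested members' promoters held the ETS core, against 18.2% of the promoters of genes tested and 10.7% of all promoters. The median difference of those members was -0.12, and that of the members without it was -0.12. Of all tested members, 63.6% were lower on both siRNA arrays, against 41.7% of all genes tested.
COX7B, chrX:77899348-77899467, plus strand: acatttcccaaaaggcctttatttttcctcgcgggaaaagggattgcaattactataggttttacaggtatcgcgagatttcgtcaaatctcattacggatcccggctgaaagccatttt
NDUFA1, chrX:119871712-119871831, plus strand: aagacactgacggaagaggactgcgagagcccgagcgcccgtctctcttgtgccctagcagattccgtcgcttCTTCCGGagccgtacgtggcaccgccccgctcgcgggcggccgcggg
NDUFS3, chr11:47578954-47579073, plus strand: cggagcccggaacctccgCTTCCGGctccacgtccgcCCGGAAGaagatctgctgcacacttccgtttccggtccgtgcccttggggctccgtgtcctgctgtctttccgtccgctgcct
SDHD, chr11:112086753-112086872, plus strand: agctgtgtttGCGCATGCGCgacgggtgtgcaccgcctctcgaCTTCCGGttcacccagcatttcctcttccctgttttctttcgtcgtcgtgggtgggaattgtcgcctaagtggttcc
ATP5F1C, chr10:7788057-7788176, plus strand: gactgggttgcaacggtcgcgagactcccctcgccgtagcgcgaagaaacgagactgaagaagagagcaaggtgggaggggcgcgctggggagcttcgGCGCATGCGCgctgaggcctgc
ATP5PF, chr21:25735055-25735174, minus strand: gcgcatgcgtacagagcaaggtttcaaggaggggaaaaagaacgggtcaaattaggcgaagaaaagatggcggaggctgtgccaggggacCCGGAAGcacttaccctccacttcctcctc

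Subunit genes lay slightly lower on the siRNA arrays than on the control array, by an amount small for any single gene. The filter kept genes whose mean over the 3 arrays reached the 30th percentile (log2 5.12), which left 77 members of 12892 genes tested; COX6B2, COX7A1 and COX8C, isoforms known from testis or muscle, fell below it. The median difference of the 77 members was -0.13 with siSE1 and -0.13 with siSE2, and -0.12 for the siRNA mean, against -0.023, -0.013 and -0.019 over all genes tested. The members are bright, with a median level of 8.86 against 7.16 over all genes tested. Among the 5840 genes tested at or above the members' lower-quartile level of 7.34 the median difference was -0.063. The gap of all 77 members to these brighter genes was -0.059, against -0.10 to all genes. The brighter genes had a median level of 8.36, below that of the members, so levels were not fully matched. The size of the shift depends on the scaling: with array medians made equal, the members' medians were -0.035 with siSE1, -0.068 with siSE2 and -0.046 for the siRNA mean, while the median of all genes tested moved to 0.058.

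The siRNA mean was below the control value for 55 of the 77 members (71.4%), against 53% of all genes tested and 61.7% of the brighter genes. It was above the control for 22 (28.6%), against 47% and 38.3%. Both siRNA arrays lay below the control array for 49 members (63.6%), against 41.7% of all genes tested and 49.5% of the brighter genes. Both lay above it for 14 (18.2%), against 36.4% and 28.2%. With siSE1, 21 members were at least 1.2-fold lower (27.3%, against 20.3% of all genes and 23.5% of the brighter genes) and 4 at least 1.2-fold higher (5.19%, against 13.9% and 9.38%). With siSE2, 19 members were at least 1.2-fold lower (24.7%, against 16.5% and 18.7%) and 3 at least 1.2-fold higher (3.90%, against 11.4% and 8.96%). With equal array medians, 16 members were that much lower and 11 higher with siSE1, and 10 lower and 4 higher with siSE2. Shares of all genes past 1.2-fold were not counted in that setting, where the median of all genes tested was 0.058. In the same setting 41 of the 77 members were below the control on both siRNA arrays, against 30.3% of all genes tested. At 1.5-fold the members lower were 7 with siSE1 (all genes 4.27%) and 1 with siSE2 (2.82%), and none was higher (1.45% and 1.2% of all genes). A total of 45 members (58.4%) stayed within 1.2-fold of the control on both siRNA arrays, against 56.2% of all genes tested.

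None of the 77 members passed the test across genes. In a limma fit of both siRNA arrays against the control over all 12892 genes, at a threshold of 0.05 on the Benjamini-Hochberg adjusted p, 0 members were called, where 0.962% of all genes were (0.714% lower and 0.248% higher). At an unadjusted p under 0.05, 14 members were lower and 1 higher, where 11.3% of all genes were lower and 6.46% higher. The member that was higher, COX4I2, passed the filter only through the siRNA arrays. This fit has 1 residual degree of freedom per gene, from the difference between siSE1 and siSE2, and the lone control array adds no measured spread. It also uses a prior shared across genes that counts as 8.46 degrees of freedom. The standard errors thus come mostly from that prior and less from the spread of the gene itself. COX6B1, with siRNA arrays 0.00019 apart, still had a standard error of 0.14. The median standard error of a member's difference was 0.14.

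**Figure D1:**
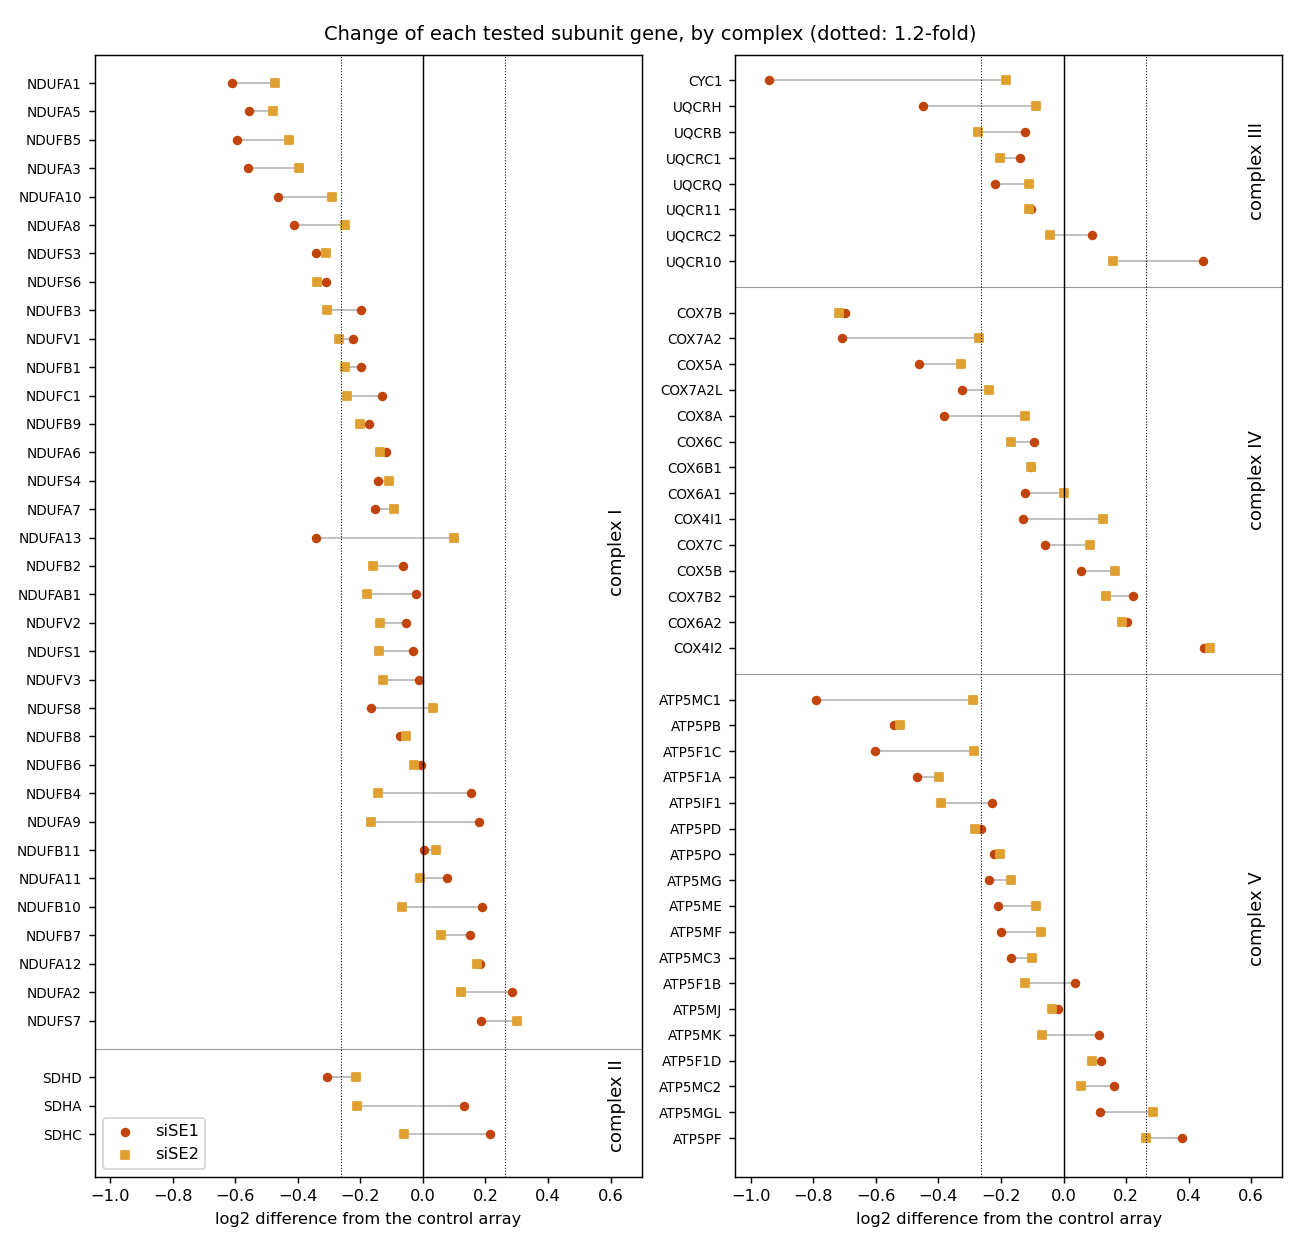
Log2 difference from the control array for each of the 77 tested subunit genes, by complex, with siSE1 as circles and siSE2 as squares joined by a line. Both siRNA arrays lie below the control for 49 genes and above it for 14, and COX7B shows nearly equal values with both siRNAs, -0.70 and -0.72.

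The complexes differed little in their medians, and each spread over a range wider than the distance between them. The median difference of the siRNA mean from control was -0.12 in complex I, -0.040 in complex II, -0.17 in complex III, -0.081 in complex IV and -0.14 in complex V. With equal array medians these were -0.040, 0.036, -0.091, -0.0047 and -0.066 in the same order, so the sign of complex II turned, and without a filter complex IV had -0.0015. The interquartile range of the complex I genes ran from -0.25 to 0.00021 and that of the complex V genes from -0.30 to 0.0095. Members of a complex are not replicates, so the complexes were not tested against each other. With siSE1 the medians of complexes I to V in order were -0.12, 0.13, -0.13, -0.11 and -0.21, and with siSE2 they were -0.14, -0.21, -0.11, -0.050 and -0.11. Only the median of complex II lay on opposite sides of the control with the siRNAs, and it rests on 3 genes.

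**Figure D2:**
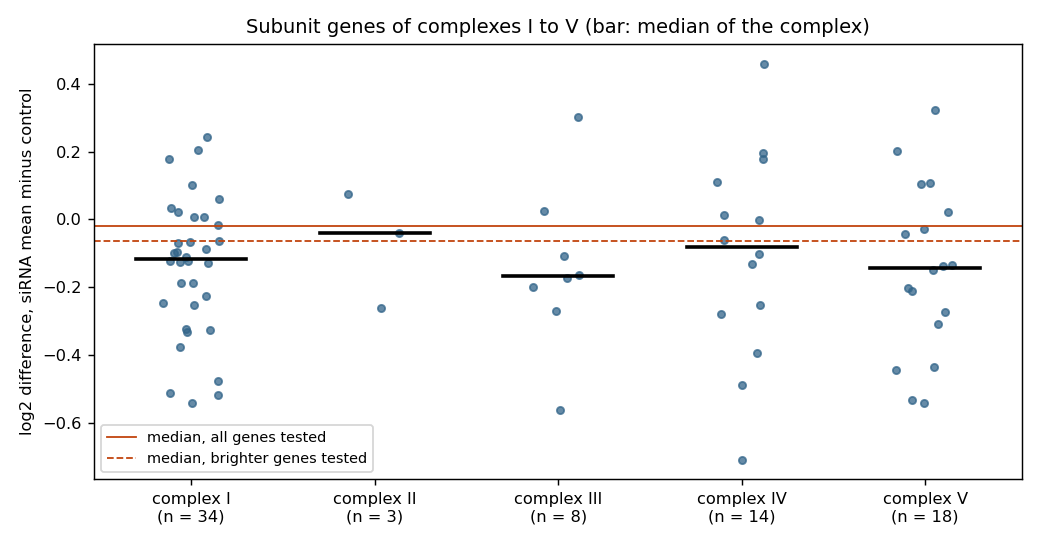
Log2 difference (siRNA mean minus control) of each tested subunit gene by complex; points are genes, black bars are medians of -0.12 (I), -0.040 (II), -0.17 (III), -0.081 (IV) and -0.14 (V), and red lines are the medians of all genes tested (-0.019) and of the 5840 brighter genes (-0.063). Every complex spans both signs.

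Complex I, the NADH dehydrogenase, has core subunits in the matrix arm that carry flavin and iron-sulphur clusters and many accessory subunits in both arms. Of its 34 members 25 had a siRNA mean below control and 9 above, where 53% of all genes tested lay below. The genes with the lowest changes were accessory. NDUFA1, a small membrane-arm subunit needed for assembly, had 7.13 with siSE1 and 7.27 with siSE2, against 7.74 in control, a difference of -0.54 ± 0.15 (SE, n = 2 against 1; limma, adjusted p = 0.107). NDUFA5, a matrix-arm subunit, had 6.08 and 6.16 with siSE1 and siSE2, against 6.64 in control (difference -0.52 ± 0.14; limma, adjusted p = 0.113). NDUFB5 in the membrane arm had 8.94 and 9.11, against 9.53 in control (-0.51 ± 0.15; limma, adjusted p = 0.125). In these 3 genes both siRNA arrays were below the control by more than they differed from each other. NDUFA3, another membrane-arm subunit, had 9.48 and 9.65, against 10.04 in control (-0.48 ± 0.15; limma, adjusted p = 0.142).

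The 6 core genes of complex I had a median of -0.091. NDUFS3, a core subunit of the matrix arm, had 9.52 and 9.55 with siSE1 and siSE2, against 9.86 in control. NDUFV1, which binds NADH and flavin, had 8.89 and 8.84, against 9.11. NDUFS7, which holds the iron-sulphur cluster next to ubiquinone, had 8.21 and 8.33, against 8.03 in control, and was the highest member of the complex (difference 0.24 ± 0.14; limma, adjusted p = 0.413). NDUFS1 and NDUFV2, which also carry clusters, differed from control by -0.086 and -0.096, less than the standard error of 0.14 for each. The 9 accessory genes of the matrix arm had a median of -0.12, from NDUFA5 to NDUFA2 at 0.20. The 18 accessory genes of the membrane arm had a median of -0.15, from NDUFA1 to NDUFB7 at 0.10, and 6 of the 18 were at least 1.2-fold lower with siSE1 (all genes 20.3%) and 5 with siSE2 (16.5%). NDUFA8 and NDUFA10, also accessory, had 8.05 and 8.21, against 8.46 in control, and 7.27 and 7.45, against 7.74. NDUFAB1, the mitochondrial acyl carrier protein found in both arms, differed by -0.099.

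Complex II, succinate dehydrogenase, also works in the citric acid cycle and pumps no protons. SDHA, the flavoprotein that oxidises succinate, had 9.17 with siSE1 and 8.83 with siSE2, against 9.04 in control. The siRNA arrays lay on either side of the control, and their mean differed from it by -0.040 ± 0.17 (limma, adjusted p = 0.926). SDHD, a membrane anchor subunit, had 8.88 and 8.97, against 9.19 in control (-0.26 ± 0.14; limma, adjusted p = 0.377). SDHC, the other anchor, had 9.78 and 9.50, against 9.56 in control (0.076 ± 0.16; limma, adjusted p = 0.844). The 2 probe sets of SDHC disagreed: 1 had 8.16 and 7.99, against 7.77 in control, and the other 11.39 and 11.01, against 11.35.

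Complex III, the cytochrome bc1 complex, passes electrons from ubiquinol to cytochrome c. CYC1, which encodes its catalytic cytochrome c1, had 8.47 with siSE1 and 9.23 with siSE2, against 9.41 in control. The low value was that of siSE1 alone, 1.92-fold below control, while siSE2 was 1.14-fold below it. The mean difference of -0.56 carried a standard error of 0.26 (limma, adjusted p = 0.289). UQCRH, the hinge protein that binds cytochrome c1, followed the same order, with 5.83 and 6.19 on the siRNA arrays, against 6.28 in control (-0.27 ± 0.17; limma, adjusted p = 0.454). UQCRB, near the ubiquinone site, had 6.49 and 6.34, against 6.61 in control (-0.20 ± 0.15; limma, adjusted p = 0.513). The core proteins UQCRC1 and UQCRC2 differed by -0.17 and 0.025. UQCR10, a small subunit, was higher on both siRNA arrays, with 9.17 and 8.88, against 8.72 in control (0.30 ± 0.16; limma, adjusted p = 0.366).

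Complex IV, cytochrome c oxidase, held the member with the lowest change. COX7B, a small subunit needed for assembly of the complex, had 6.24 with siSE1 and 6.22 with siSE2, against 6.93 in control. The siRNA arrays were within 0.018 of each other and 0.70 and 0.72 below the control. COX7B was 1.63-fold lower (difference -0.71 ± 0.14, interval -1.02 to -0.39; limma, adjusted p = 0.0539) and ranked at percentile 1.37 among all genes tested. It missed the threshold in this fit and passed it under quantile normalization, cyclic loess, the highest probe set per gene and an intensity trend in the prior (limma, adjusted p = 0.0474, 0.0485, 0.0484 and 0.0440), over a range of 0.0440 to 0.148 across the alternatives.

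COX7A2, the broadly expressed isoform of subunit VIIa, had 7.61 with siSE1 and 8.05 with siSE2, against 8.32 in control, with siSE1 the lower (-0.49 ± 0.19; limma, adjusted p = 0.217). COX7A2L, a relative that joins complexes III and IV into supercomplexes, had 7.02 and 7.11, against 7.35 in control (-0.28 ± 0.14). COX5A, a matrix-side subunit, had 10.40 and 10.54, against 10.87 in control (-0.39 ± 0.15; limma, adjusted p = 0.203). COX5B, its zinc-binding neighbour, lay the other way, with 11.17 and 11.27, against 11.11 in control. COX4I1, the ubiquitous isoform of subunit IV, had 7.52 and 7.77, against 7.65 in control, and COX6B1 10.98 and 10.98, against 11.09. COX8A, the ubiquitous isoform of subunit VIII, had 11.00 and 11.27, against 11.39 in control. The 11 broadly expressed genes of the complex had a median difference of -0.13, with COX7B lowest and COX5B highest at 0.11.

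The tissue-restricted isoforms of complex IV subunits had mostly low signal. Of these 6 genes, 4 (COX4I2, COX6A2, COX7B2 and COX6B2) lay above the control on both siRNA arrays, as did 36.4% of all genes tested. That share leaves out genes below the filter, such as COX6B2, and the count was not tested. COX4I2, the isoform of subunit IV known from lung and hypoxic cells, had 5.35 and 5.37 with siSE1 and siSE2, against 4.91 in control (0.46 ± 0.14; limma, adjusted p = 0.140). Its control value lies below the filter level of 5.12 and its siRNA values above it, so it was tested only because of the siRNA arrays. COX6A2, the heart and muscle isoform, had 6.99 and 6.97, against 6.78 in control, and COX7B2, the testis isoform, 5.48 and 5.40, against 5.26. Below the filter, COX6B2 had 4.13 and 3.98, against 3.77, COX7A1 had 5.07 and 4.83, against 4.85, and COX8C had 4.55 and 4.14, against 4.31. Dim genes as a group also lay higher: without the filter the median difference over all 18417 genes was 0.012, against -0.019 over the genes tested.

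Complex V is built from a catalytic F1 head, a peripheral stalk and a membrane ring of c subunits that turns with the proton flow. ATP5MC1, 1 of the genes for the c subunit, had 11.26 with siSE1 and 11.76 with siSE2, against 12.05 in control, with siSE1 the lower (-0.54 ± 0.20; limma, adjusted p = 0.203). ATP5MC2 and ATP5MC3 encode the same mature c subunit, and they differed by 0.11 and -0.13, each with a standard error of 0.14. The c-subunit genes thus had unequal values, and the differences between them were not tested.

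In the F1 head, ATP5F1C, the gene of the central gamma subunit, had 9.80 and 10.12 with siSE1 and siSE2, against 10.40 in control (-0.44 ± 0.17; limma, adjusted p = 0.209). ATP5F1A, the alpha subunit gene, had 8.68 and 8.75, against 9.15 in control (-0.43 ± 0.14; limma, adjusted p = 0.164). The beta subunit gene ATP5F1B, whose product carries the catalytic sites, had 12.34 and 12.18, against 12.30 in control, and the delta subunit gene ATP5F1D 10.24 and 10.21, against 10.11. Alpha and gamma genes were lower on both siRNA arrays, and beta and delta genes stayed within 0.13 of the control.

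In the peripheral stalk, ATP5PB, the b subunit gene, had 6.30 and 6.32 with siSE1 and siSE2, against 6.84 in control, with nearly equal siRNA values (-0.53 ± 0.14; limma, adjusted p = 0.101). ATP5PF, the gene of coupling factor 6 in the same stalk, lay the other way, with 7.78 and 7.67, against 7.40 in control (0.32 ± 0.14; limma, adjusted p = 0.285). ATP5PD and ATP5PO differed by -0.27 and -0.21. The 6 genes of small membrane subunits, from ATP5MG at -0.20 to ATP5MGL at 0.20, had a median of -0.082. ATP5IF1, which encodes the inhibitor that blocks ATP hydrolysis by the synthase, had 7.32 and 7.16, against 7.55 in control (-0.31 ± 0.15; limma, adjusted p = 0.310).

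**Figure D3:**
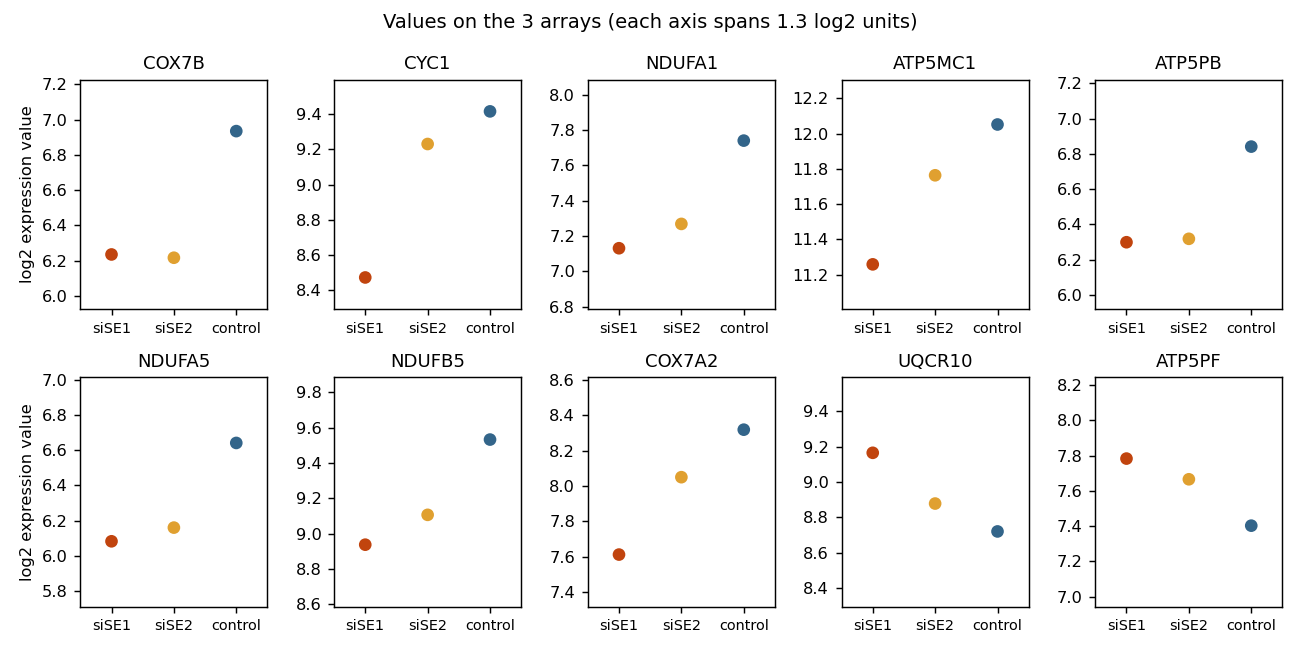
Log2 expression values of 10 subunit genes on the siSE1, siSE2 and control arrays, 1 point per array, each axis spanning the same number of log2 units. COX7B and ATP5PB have nearly equal siRNA values below the control, CYC1, ATP5MC1 and COX7A2 are lowest with siSE1, and UQCR10 and ATP5PF lie above the control.

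The siRNA arrays could be compared with each other without the control array. The median of siSE2 minus siSE1 over the 77 members was -0.0085, against 0.0047 over all genes tested, so neither siRNA array stood lower over the subunit genes as a group. With siSE2, 6 members were at least 1.2-fold higher than with siSE1 (all genes 9.49%) and 5 at least 1.2-fold lower (7.31%). CYC1 differed most, by 0.76, followed by ATP5MC1 at 0.50, NDUFA13 at 0.44, COX7A2 at 0.44, UQCRH at 0.36 and ATP5F1C at 0.32. NDUFA13, a complex I subunit also known as GRIM-19, had 7.30 with siSE2 and 6.85 with siSE1, against 7.20 in control. NDUFA9, SDHA, NDUFB4, UQCR10 and SDHC were lower with siSE2 than with siSE1, by 0.35 or less. With 1 array each these differences have no test. By complex, the median of siSE2 minus siSE1 was -0.024 (I), -0.28 (II), -0.037 (III), 0.096 (IV) and 0.019 (V).

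**Figure D4:**
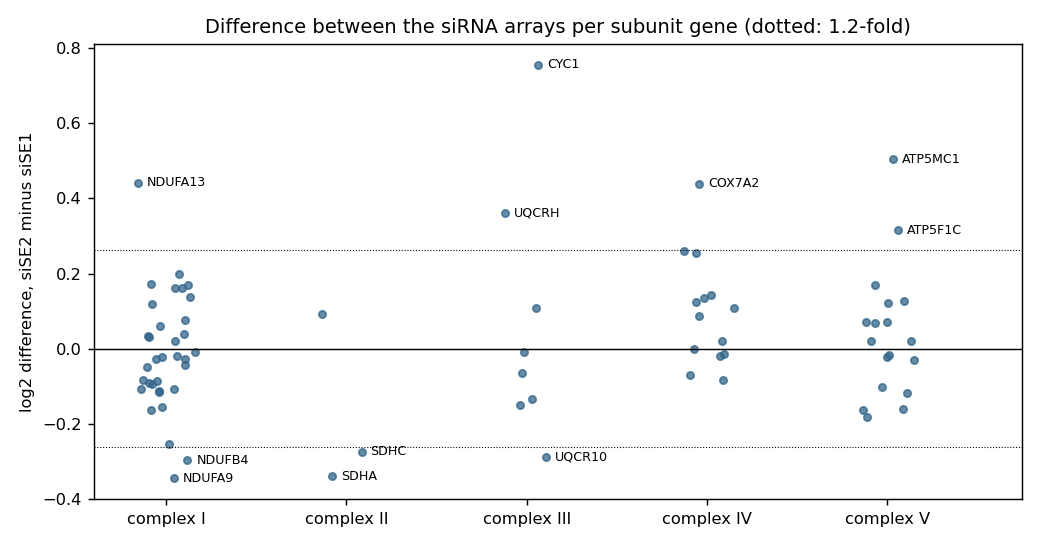
Log2 difference between the siRNA arrays (siSE2 minus siSE1) for each tested subunit gene, by complex; named genes differ by at least 1.2-fold. CYC1 stands highest at 0.76, and 10 other genes lie outside the dotted lines.

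The other nuclear genes of respiration were read from lists of assembly factors, citric acid cycle enzymes, cytochrome c with inner membrane scaffolds, and transcriptional regulators. The assembly factors lay lower than the subunits: the 40 tested (of 48 listed) had a median of -0.22, with -0.20 for siSE1 and -0.22 for siSE2, and 35 of 40 had a siRNA mean below control (53% of all genes). None passed the test (limma, adjusted p of at least 0.122), where 0.962% of all genes did. With siSE1 14 were at least 1.2-fold lower (all genes 20.3%) and with siSE2 17 (16.5%), and none was that much higher with either (13.9% and 11.4%). NUBPL, which delivers iron-sulphur clusters to complex I, had 6.04 and 6.27, against 6.68 in control. COA4, a complex IV assembly factor, had 7.55 and 7.56, against 8.05, and UQCC3, of complex III, had 6.42 and 6.13, against 6.72. These 3 differed from control by -0.53 ± 0.16, -0.49 ± 0.14 and -0.45 ± 0.16.

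The 11 tested citric acid cycle enzymes had a median difference of -0.17 with siSE1, -0.076 with siSE2 and -0.12 for the siRNA mean, and none passed the test. DLST, of the oxoglutarate dehydrogenase complex, had 7.80 and 7.98, against 8.39 in control (-0.50), and IDH3B, of isocitrate dehydrogenase, 7.68 and 7.83, against 8.16 (-0.40). DLD, shared by several dehydrogenases, differed by -0.36, while CS, citrate synthase, differed by 0.19. Among 8 genes of cytochrome c and membrane scaffolds the median was -0.29 with siSE1, -0.093 with siSE2 and -0.17 for the siRNA mean, and none passed. STOML2, an inner membrane scaffold protein, differed by -0.38 with each siRNA. The prohibitin PHB2 differed by -0.63 with siSE1 and -0.089 with siSE2, and its partner PHB1 by -0.58 and 0.32. Both thus differed between the siRNA arrays, and with 1 array each this has no test. CHCHD3, of the cristae organising system, differed by -0.24. CYCS, cytochrome c itself, had 7.81 and 7.61, against 7.48 in control.

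The regulators of mitochondrial gene expression stood near the median of all genes. The 13 tested had a median of -0.047, and none passed the test. YY1, a zinc finger factor, differed by 0.37, PPARGC1B, a coactivator, by -0.32 and PPRC1, its relative, by -0.25. The site-binding factors NRF1 and GABPA differed by -0.059 and 0.12, and TFAM, which packages mitochondrial DNA and acts in its transcription, by -0.17. The mitochondrially encoded subunits are not analysed here.

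**Figure D5:**
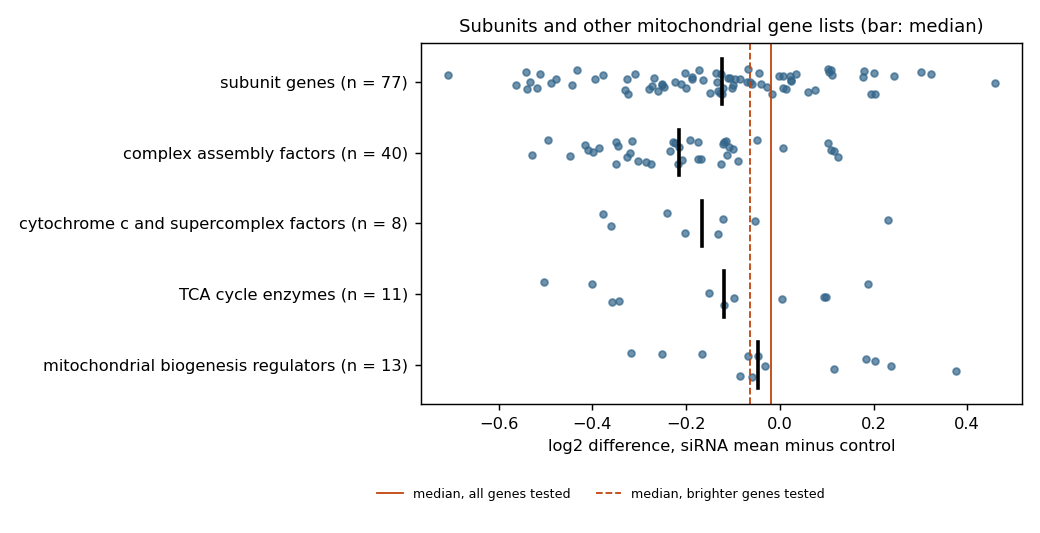
Log2 difference (siRNA mean minus control) of each tested gene in the subunit list and in the lists of assembly factors, cytochrome c and supercomplex factors, TCA cycle enzymes and biogenesis regulators; points are genes, black bars are medians of -0.12, -0.22, -0.17, -0.12 and -0.047, and red lines are the medians of all and of brighter genes. Of the assembly factors, 35 of 40 lie below 0.

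Windows from 250 bases before to 50 after the start, longer than the stretches printed above, were searched over all members. A promoter was matched for 65 of the 77 tested members. The ETS core (CCGGAAG on either strand) was in 19 of the 65 (29.2%), against 18.2% of the 10242 promoters of genes tested and 10.7% of all 27305 promoters in the table. The NRF1 core was in 4 of the 65 (6.15%), against 2.19% and 1.36% in the same order. The 19 members with the ETS core had a median difference of -0.12 and the other members -0.12, where all genes tested had -0.068 with the core and -0.018 without it. By siRNA, members with the core had -0.21 with siSE1 and -0.10 with siSE2, and those without it -0.12 and -0.16, so the order of the medians differed between the siRNAs. The 4 members with the NRF1 core, ATP5F1C, NDUFA8, SDHD and NDUFB4, differed by -0.44, -0.33, -0.26 and 0.0061. NDUFA1 holds the ETS core 47 bases before its start, and ATP5F1C the NRF1 core 22 bases before its own, as in the sequences above.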

How the data were processed

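Expression was measured in 3 samples on an Affymetrix array. The authors deposited 1 table of log2 values for 33297 probe sets, for which the submitters' processing notes name Affymetrix Expression Console; its version, the algorithm and the build were not stated, and the log2 scale was read from the range (1.43 to 13.9). The platform annotation named 1 gene for 19460 probe sets, several for 1754 and left 12083 unnamed. Probe sets of a gene were averaged. The siRNA arrays (n = 2) were compared with the control array (n = 1) by limma 3.58.1 in R 4.3.3 (lmFit, eBayes, two-sided). P-values were adjusted by Benjamini-Hochberg over the whole set tested. SE and 95% intervals are moderated values of that fit. The same fit was run on simulated data with spreads drawn from its own prior and equal across arrays. That run cannot show whether the control array varies as the siRNA arrays do. The number of arrays limits the precision. Single siRNAs were compared by size, with no test. Changes with full statistics are given for the 3 lowest and the highest members of each complex, members past 1.5-fold, those with an unadjusted p under 0.01 and those at least 1.3-fold apart between siRNAs, and for up to 3 genes of each other list; other genes were added after their values were seen. Members and lists were chosen with earlier results of these data known. Alternatives covered normalization, filter, probe set choice, the variance prior, fold size and leaving out an array.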

Additional observations from a re-analysis of the deposited data

How the results depend on the processing

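The count of genes called over the whole array, 124 (32 higher, 92 lower), was 189 with quantile normalization (63 higher), 82 higher with equal array medians, 52 higher with an intensity trend, 35 with a filter at the 50th percentile (15 higher, 20 lower) and 1 without the filter (1 higher, 0 lower). Members called were 0 in the main fit and 1, COX7B, with quantile normalization, cyclic loess, the highest probe set or the trend. The members' median (siRNA mean, siSE1, siSE2) was -0.096, -0.099 and -0.12 with quantile normalization, -0.046, -0.035 and -0.068 with equal array medians, -0.099, -0.10 and -0.12 with cyclic loess, -0.12, -0.13 and -0.14 for genes above the 50th percentile, -0.12, -0.12 and -0.13 without a filter or with dim members included, -0.13, -0.14 and -0.13 without members of several probe sets (chosen after seeing the data), and -0.13 and -0.14 for siSE1 and siSE2 with the highest probe set. Minus the median of all genes tested, -0.10 in the main fit, it was -0.092 (quantile), -0.084 (cyclic loess), -0.13 (no filter), -0.069 (filter at the 50th percentile) and -0.059 against brighter genes (chosen after seeing the data). Complex I had -0.080 (quantile), -0.095 (loess) and -0.040 (equal medians), complex III -0.12, -0.13 and -0.091 in that order; with equal medians complexes II, IV and V had 0.036, -0.0047 and -0.066, and complex IV had -0.0015 without a filter. The sign of complex II thus changed. siSE2 minus siSE1 was -0.018 (quantile), -0.018 (loess), -0.041 (equal medians), -0.011 (no filter) and -0.016 (50th percentile). All-gene shares past 1.2-fold were not counted with equal medians. In that setting 16 members were 1.2-fold lower and 11 higher with siSE1, and 10 lower and 4 higher with siSE2. With the 50th percentile 1 was higher with siSE2. At 1.5-fold 7 were lower with siSE1, 1 with siSE2 and 0 higher with either. SDHA had 0.036 with equal medians, and SDHC -0.15 with the highest probe set.

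Leaving out 1 siRNA array left 1 array against 1, a value with no test. The members' median was then -0.13 to -0.13, its gap to all genes -0.12 to -0.11, and complexes I to V had -0.14 to -0.12, -0.21 to 0.13, -0.13 to -0.11, -0.11 to -0.050 and -0.21 to -0.11. NDUFA13 ran from -0.34 to 0.10, SDHC from -0.062 to 0.21 and SDHA from -0.21 to 0.13. The cause of these shifts was not tested. No paired analysis was possible because the control group has 1 array and its label carries no replicate number. With 1 residual degree of freedom, the fit depends on a prior shared across genes.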

Other observations

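A further 9 probe sets entered no comparison. Each names, with other genes, a subunit gene or a joint locus whose symbol begins with one, such as ATP5MF-PTCD1. Among them are the sets that name NDUFC2, NDUFS5 and ATP5F1E, subunits of complexes I and V. Differences of the 9 sets from control ran from -0.25 to 0.15 with siSE1 and from -0.16 to 0.036 with siSE2. The upper value with siSE1 came from a set that names only ATP5MF-PTCD1 and PTCD1. With siSE1 and siSE2, the set that names UQCRH differed by -0.25 and -0.13. Sets that name SDHA differed by -0.0064 and 0.036, and by -0.011 and -0.13. Of the 9 sets, 0 reached 1.2-fold on either array. The non-coding genes that share the naming, ATP5F1EP2, UQCRBP1 and NDUFV1-DT, differed by -0.10, -0.17 and -0.13. The pair of NDUFB4 probe sets held identical values on all 3 arrays and so count as 1 measurement.

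Markers of other cell types were read beside these results. Over the 8 measured fibroblast genes the mean log2 value was 5.09 with siSE1 and 5.10 with siSE2, against 5.03 in control. Over the 4 measured basal epithelial genes it was 5.81 and 5.96, against 5.69, and over the 6 measured blood cell genes 5.08 and 4.96, against 4.70. Among the blood cell genes LYZ, lysozyme, had 6.09 with siSE1 and 5.11 with siSE2, against 4.41 in control, below the filter level of 5.12. PTPRC, CD3E and HBB, all below that level, differed by 0.030, 0.018 and 0.084. The part of these genes in the subunit values was not tested. The 6 measured luminal genes had a median of 0.27, with KLK3 at -0.39 and ACP3, prostatic acid phosphatase, at 0.76.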
